A study of Mus musculus with 2 samples.

Results

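Retinoic acid synthesis and binding genes were followed across the cells of the mouse dorsal meninges in 2 single-cell RNA-seq libraries. The set held 9 genes of the 32285 in the matrices: Rbp4, Stra6, Rdh10, Aldh1a1, Aldh1a2, Aldh1a3, Crabp1, Crabp2 and Cyp26b1. Members were matched by gene symbol, from a list drawn up with earlier results of these data known. All 9 had unique molecular identifiers (UMIs, each standing for 1 captured transcript) in both libraries. The Sham library came from the pooled dorsal meninges of 5 male C57BL/6 mice (C57BL/6J in the study's methods) taken 1 week after a Sham procedure, and the TBI library from 5 such mice taken 1 week after a mild closed-skull injury. The labels put the mice at 10 weeks of age in one field and at 10-12 weeks in another, and give no other genotype or agent. Because each group was a single pool, differences between mice could not be seen, no test between Sham and TBI was possible, and every interval given below is a 95% exact interval that covers counting error only.

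About 4000 live cells per sample were loaded, and the matrices held 2699 Sham and 4349 TBI barcodes, of which 20 occurred in both. After the study's filters, 2043 Sham cells with 7866611 UMIs and 3773 TBI cells with 13940740 UMIs were kept, with medians of 2764 and 2663 UMIs per cell. The 5816 cells formed 25 clusters built without any retinoid gene, and 23 clusters took one of 19 names from marker genes, each written with -like because the names were rebuilt from the counts. Every one of the 19 classes had the highest summed level of its own markers, which had also named it, so this is no separate check. The T cell markers were close, at 6310 CPM in T cell-like and 5997 CPM in gamma-delta T or Th17-like cells. The 2 clusters left unnamed were led by Snhg11 and Foxp2 (55 Sham and 312 TBI cells) and by Sema3g and Gkn3. The former carried all 9 fibroblast markers at a summed 10979 UMIs per 1000000 UMIs of the cluster, against 21523 in the fibroblast-like class (66 Sham and 451 TBI cells).

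Retinoic acid is made from vitamin A inside the cell that uses it or in a neighbouring cell. Retinol travels bound to RBP4 and can enter a cell through STRA6, RDH10 oxidizes it to retinaldehyde, and the ALDH1A enzymes oxidize retinaldehyde to retinoic acid. CRABP1 and CRABP2 bind retinoic acid in the cytoplasm, CRABP2 delivers it to nuclear receptors, and CYP26B1 breaks it down. The meninges are known as a source of retinoic acid for the developing cortex, and Aldh1a2 is in use as a marker of arachnoid fibroblasts. Levels below are UMIs per 1000000 UMIs of a class (CPM). Because reads were counted from transcript ends and capture differs between genes, levels were compared between cells for 1 gene and not between genes.

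On GRCm38 the members lie at chr19:38116629-38125281 (Rbp4, minus strand), chr9:58063788-58153996 (Stra6, plus), chr1:16105774-16133734 (Rdh10, plus), chr19:20492715-20643465 (Aldh1a1, plus), chr9:71215789-71296243 (Aldh1a2, plus), chr7:66390890-66427517 (Aldh1a3, minus), chr9:54764748-54773110 (Crabp1, plus), chr3:87948666-87953376 (Crabp2, plus) and chr6:84571414-84593908 (Cyp26b1, minus). All are protein-coding genes. Stra6 overlaps Gm16131 on its own strand and Ccdc33 on the other, and the Aldh1a1 paralog Aldh1a7 lies next to it at chr19:20692953-20727562. RefSeq promoter windows on GRCm38.p6 were matched for 6 of the 9 members. The upstream windows of 3 genes are shown here because their highest levels were in different classes: Rbp4 in fibroblast-like, Aldh1a2 in migratory dendritic-like and Crabp1 in pineal-like cells. Aldh1a2 had most of its UMIs in fibroblast-like cells, as Rbp4 did. Each line gives the 250 bases before a RefSeq start, read along the gene's strand, at chr19:38125322-38125571 (minus), chr9:71215539-71215788 (plus) and chr9:54764498-54764747 (plus), with capitals marking a motif.
Rbp4: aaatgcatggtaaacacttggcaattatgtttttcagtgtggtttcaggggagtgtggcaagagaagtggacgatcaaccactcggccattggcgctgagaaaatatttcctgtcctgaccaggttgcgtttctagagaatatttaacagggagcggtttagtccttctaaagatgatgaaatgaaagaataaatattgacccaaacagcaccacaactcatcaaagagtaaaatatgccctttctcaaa
Aldh1a2: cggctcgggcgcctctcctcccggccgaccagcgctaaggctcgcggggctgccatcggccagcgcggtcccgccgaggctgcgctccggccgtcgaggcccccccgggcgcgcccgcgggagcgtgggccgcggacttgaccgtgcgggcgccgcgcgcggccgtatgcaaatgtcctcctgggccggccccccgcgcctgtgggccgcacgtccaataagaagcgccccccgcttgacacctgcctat
Crabp1: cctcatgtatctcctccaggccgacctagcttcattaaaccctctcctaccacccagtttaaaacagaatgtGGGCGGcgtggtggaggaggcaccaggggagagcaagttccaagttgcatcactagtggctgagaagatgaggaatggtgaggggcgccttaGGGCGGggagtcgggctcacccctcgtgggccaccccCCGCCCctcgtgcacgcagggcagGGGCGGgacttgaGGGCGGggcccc
Of 32851 windows of the same length, 12.4% held TATAAA on either strand. The GC box letters GGGCGG were in 32.7% of them, AGGTCA, known from the binding sites of many nuclear receptors, in 14.0%, and TAATCC in 6.25%. None of these motifs contains another. The Crabp1 window held GGGCGG 5 times, and the Rbp4 and Aldh1a2 windows shown held none of these motifs. Base composition differed, with 40.8% G or C and 5 CG pairs in the Rbp4 window shown. For the Aldh1a2 window these were 77.6% and 40, and for the Crabp1 window 63.6% and 12. Rbp4 had another matched window, at chr19:38124812-38125061 and not shown, which held 1 TATAAA and 2 GGGCGG. That window had 70.8% G or C and 28 CG pairs. No matched window of any member held AGGTCA or the letters TAATCC.

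The 9 genes did not share a cell type, though at a finer resolution of 1.6 Rbp4, Stra6, Aldh1a2 and Crabp2 were all highest in 1 cluster of 67 cells. For Rbp4 and Aldh1a2 the interval there overlapped that of another cluster. Rbp4 and Crabp2 were fibroblast-like, Stra6 was highest in choroid plexus-like cells, Aldh1a2 in migratory dendritic-like and fibroblast-like cells, Crabp1 in pineal-like cells, and Cyp26b1 in pericyte or smooth muscle-like and endothelial-like cells. The highest class was the same in Sham and in TBI for 6 members, the exceptions being Rdh10, Aldh1a3 and Cyp26b1. In Sham these 3 were highest in choroid plexus-like, Schwann-like and endothelial-like cells, and in TBI in pericyte or smooth muscle-like, pineal-like and pericyte or smooth muscle-like cells. These placements are shown per library in the plot of levels by class.

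**Figure D1:**
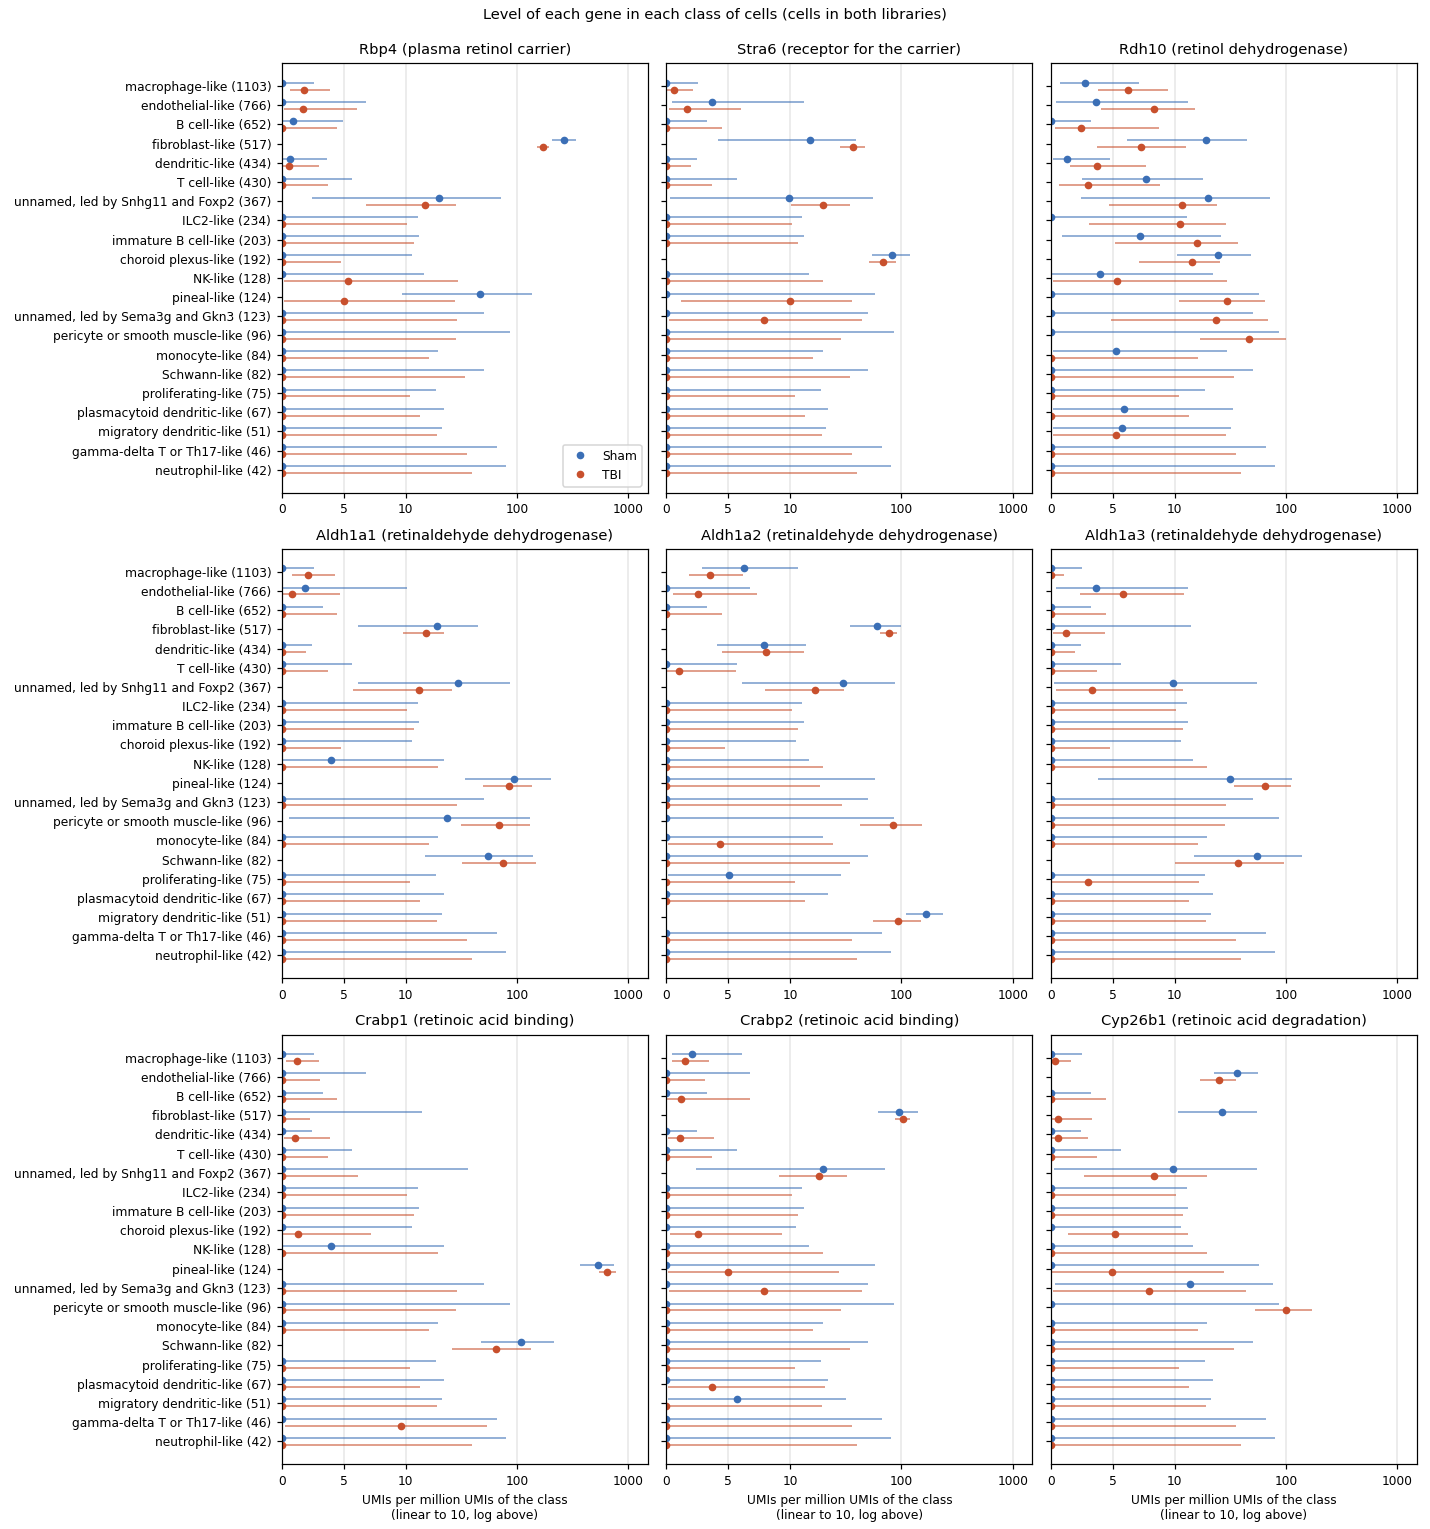
Level of each of the 9 genes in each of 21 classes, in UMIs per 1000000 UMIs of the class (linear to 10, logarithmic above), with Sham in blue, TBI in orange and bars for 95% counting intervals; numbers beside the names are cells in both libraries. Rbp4 and Crabp2 stand out in fibroblast-like cells and Crabp1 in pineal-like cells in both libraries, while Rdh10 has UMIs in 17 classes.

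Rbp4, which encodes the retinol carrier of blood plasma, was largely confined to fibroblast-like cells. Of its 382 UMIs, 355 (92.9%) were in fibroblast-like cells, at 185 CPM (166 to 205). The next class, the unnamed cluster led by Snhg11 and Foxp2, had 15.6 CPM (7.80 to 28.0), and 13 of 21 classes had no UMI. In Sham the class held 70 UMIs at 267 CPM (208 to 337), and in TBI 285 UMIs at 172 CPM (153 to 193). The Sham value rested on 3 of 66 cells with 46, 23 and 1 UMIs, whereas the TBI value came from 47 of 451 cells with at most 24 UMIs in any cell. The share of fibroblast-like cells with an Rbp4 UMI was therefore 4.55% (0.947 to 12.7) in Sham and 10.4% (7.76 to 13.6) in TBI. With every cell thinned to 1000 UMIs it was 6.33% over both libraries. In endothelial-like cells, taken as background, 0.261% had a UMI.

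Stra6, the receptor that takes retinol from RBP4, was highest, among the classes, in choroid plexus-like cells. These held 80 of its 167 UMIs (47.9%) at 72.8 CPM (57.7 to 90.6), with 27 UMIs in Sham (82.9 CPM) and 53 in TBI (68.6 CPM). Stra6 was seen in 18.6% of Sham and 30.1% of TBI choroid plexus-like cells, and in 5.33% over both after thinning, against 0.522% of endothelial-like cells before it. Fibroblast-like cells came next with 38.9% of the UMIs, and their interval did not overlap: 33.9 CPM (26.1 to 43.2), from 4 UMIs in Sham (15.2 CPM) and 61 in TBI (36.8 CPM). A part of the fibroblast-like class, the arachnoid fibroblast-like cells described further on, had a higher level than choroid plexus-like cells, 140.0 CPM (99.5 to 191). Thus the fibroblast-like class had UMIs both of the carrier and of the receptor, and the choroid plexus-like class had no Rbp4 UMI in 192 cells.

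Rdh10, the dehydrogenase that makes retinaldehyde, was at most at 34.7 CPM in any class. Its 133 UMIs fell in 17 of 21 classes, with 17 UMIs in fibroblast-like cells at 8.86 CPM (5.16 to 14.2), 19 in choroid plexus-like cells at 17.3 CPM (10.4 to 27.0) and 25 in macrophage-like cells. The highest level, 34.7 CPM (12.7 to 75.5) in pericyte or smooth muscle-like cells, came from 6 UMIs of the TBI library. That interval overlapped those of the pineal-like (22.7 CPM), choroid plexus-like and fibroblast-like classes, so no order among them could be read at this depth. The gene was seen in 8.33% of choroid plexus-like, 3.09% of fibroblast-like and 0.307% of B cell-like cells, at medians of 3276, 3046 and 2830 UMIs. After thinning, the shares were 0.592% of choroid plexus-like (1 of 169) and 1.75% of fibroblast-like cells (8 of 458), in the opposite order. The thinned shares rest on few cells, and no order is read from either set. No class could be taken to lack Rdh10, so no background share was set, and single UMIs in the other classes are not read as expression there.

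Of the 3 retinaldehyde dehydrogenases, Aldh1a2 was placed apart. Aldh1a1 and Aldh1a3, with both libraries pooled, were each highest in pineal-like and next in Schwann-like cells. Aldh1a2 had 268 UMIs, 70 in Sham and 198 in TBI. Its highest level among the classes was in migratory dendritic-like cells, a class with Ccr7, Ccl22 and Fscn1 as markers, at 128 CPM (94.3 to 171). There, 5 of 23 Sham cells held 29 UMIs (166 CPM), with 10, 8 and 6 in the top cells, and 10 of 28 TBI cells held 18 UMIs (94.0 CPM). Fibroblast-like cells had more of the UMIs in all, 143 or 53.4%, at a lower level of 74.5 CPM (62.8 to 87.8), an interval that lay below that of the migratory class. Sham contributed 16 UMIs from 5 cells (60.9 CPM), 10 of them in 1 cell, and TBI 127 UMIs from 43 cells (76.7 CPM), 50 of them in 1 cell. Other dendritic-like cells and macrophage-like cells had lower levels of 7.98 and 4.35 CPM. After thinning, 4.44% of migratory dendritic-like and 4.80% of fibroblast-like cells had a UMI, against 29.4% and 9.28% before it, and 0.392% of endothelial-like cells had one unthinned.

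Aldh1a1 and Aldh1a3 had their highest levels outside the fibroblast-like class. Aldh1a1, with 96 UMIs, was highest in pineal-like cells at 86.8 CPM (55.1 to 130.3), Schwann-like cells at 66.6 CPM (34.4 to 116) and pericyte or smooth muscle-like cells at 57.8 CPM (27.7 to 106), and these 3 intervals overlapped. Sham and TBI had 6 and 17 UMIs in the pineal-like class. Fibroblast-like cells had 30 Aldh1a1 UMIs at a lower level of 15.6 CPM (10.5 to 22.3). These were 31.25% of the Aldh1a1 UMIs, against 24.0% in the pineal-like class. All 12 Schwann-like UMIs were in the cluster led by Gfra3 and Kcna1. Aldh1a3, with 38 UMIs in all, was seen at 56.6 CPM in pineal-like cells, where 8 of 15 UMIs were in 1 cell, and at 44.4 CPM in Schwann-like cells. Its 9 endothelial-like UMIs were all in the cluster led by Vwf and Tmem252, and 2 UMIs were in fibroblast-like cells.

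The retinoic acid binding proteins were split between cell types. Crabp1 was pineal-like: 164 of 188 UMIs, at 619 CPM (528 to 722), with 34 UMIs in Sham (531 CPM) and 130 in TBI (647 CPM). It was seen in 29.4% of Sham and 28.9% of TBI pineal-like cells, and in 25.6% over both after thinning. Schwann-like cells followed at 83.3 CPM (46.6 to 137) with 15 UMIs, a separate interval. No Crabp1 UMI was in 517 fibroblast-like cells, which allows a share of up to 0.580% of cells with a UMI and does not limit the share expressing the gene. Crabp2 was placed elsewhere, with 196 of 226 UMIs (86.7%) in fibroblast-like cells at 102 CPM (88.3 to 117) and 18.5 CPM in the unnamed cluster led by Snhg11 and Foxp2. Sham and TBI fibroblast-like cells had 25 and 171 Crabp2 UMIs, at 95.2 and 103 CPM. It was the member found in the largest share of them, 22.7% in Sham and 21.3% in TBI, or 8.73% over both after thinning, against 1.04% of choroid plexus-like cells.

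The pineal-like values depended on the clustering and on the filters. At a finer resolution of 1.6 the 124 pineal-like cells divided into 67 cells led by S100a5 and Chgb, with 498 pineal marker UMIs, and 57 cells led by Cspg5 and Cntnap2, with 9. The former held 161 Crabp1 UMIs (1049 CPM) and all 15 of Aldh1a3 (97.8 CPM), whereas Aldh1a1 was in both, at 84.7 and 89.8 CPM. More Crabp1 UMIs were in barcodes the filters removed (431) than in the cells kept, and 417 of them were in 4 barcodes with over 5000 genes, each with more pineal marker UMIs than those of any other class. More Aldh1a1 UMIs were also removed (218) than kept, mostly in barcodes over the hemoglobin limit. The plot of kept and removed UMIs sets these beside the other 7 genes.

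**Figure D2:**
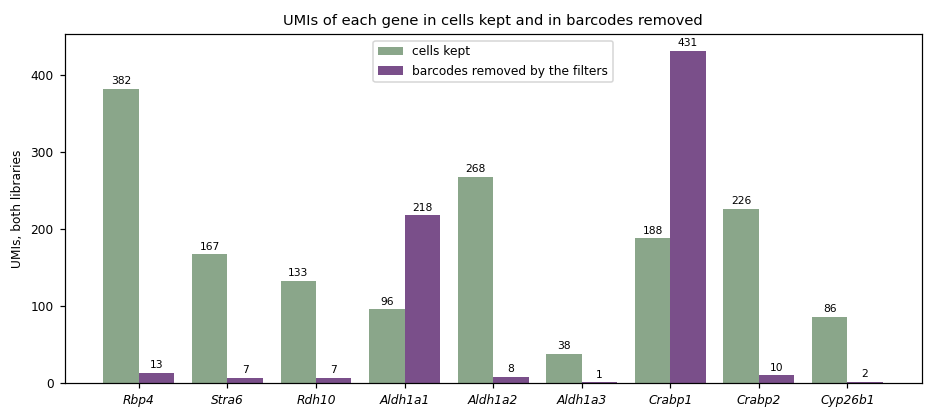
UMIs of each gene over both libraries in the 5816 cells kept (green) and in the 1232 barcodes the filters removed (purple). Removed UMIs exceed kept ones for Aldh1a1 (218 and 96) and Crabp1 (431 and 188), and are at most 13 for the other genes.

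Cyp26b1, whose product degrades retinoic acid, was vascular. Pericyte or smooth muscle-like cells had 13 UMIs at 75.2 CPM (40.04 to 129), all of them from TBI and 7 from 1 cell, so that the level without the highest cell of each library was 35.7 CPM. Endothelial-like cells had 50 of the 86 UMIs at 28.8 CPM (21.3 to 37.9), with 20 UMIs in 10 Sham cells (36.7 CPM) and 30 in 23 TBI cells (25.1 CPM). Of these 50, 48 were in the endothelial-like cluster led by Gpihbp1 and Igfbp3 at 44.0 CPM (32.4 to 58.3) and 2 in that led by Vwf and Tmem252 at 3.09 CPM (0.374 to 11.2). Gpihbp1 is known from capillary endothelium and Vwf from larger, mostly venous vessels. At resolution 1.6 the 9 Aldh1a3 UMIs were not with Vwf: 8 were in a cluster of 52 cells led by Slc38a5 and Cldn5, at 56.4 CPM (24.4 to 111), and 1 in that led by Vwf and Slco2a1, at 1.96 CPM. Of the Cyp26b1 UMIs, 37 were in the cluster led by Gpihbp1 and Igfbp3 at that resolution, at 41.7 CPM (29.3 to 57.5). Its highest level there was in a cluster led by Hecw2 and Dysf, 76.3 CPM (38.1 to 137). That level came from 11 UMIs in 4 of 113 cells, of which 104 were endothelial-like in the main clustering. In fibroblast-like cells 6 of 8 Cyp26b1 UMIs were in 1 Sham cell of a subcluster led by the endothelial genes Ptprb and Flt1.

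The fibroblast-like class was next divided into 9 subclusters, again without retinoid genes, to see whether members occupied the same fibroblasts. One subcluster took the name arachnoid fibroblast-like from Ptgds, Cdh1, Dpp4 and Wnt6, and the others are called by their leading genes. All 9 arachnoid markers had UMIs there, at a summed 31405 CPM, of which Ptgds made up 28418 CPM. Slc47a1 went the other way, at 664 CPM against 1951 CPM in the subcluster led by Penk and Nr4a2. Dural markers summed to 11307 CPM in the arachnoid fibroblast-like cells, 6 of 8 having UMIs, so the name is not exclusive. The level of Rbp4 was highest in 2 of the 9 subclusters. The subcluster led by Penk and Nr4a2 (16 Sham and 103 TBI cells) had 240 Rbp4 UMIs (67.6% of the class) at 429 CPM (377 to 487), in 2 Sham cells with 69 UMIs and 13 TBI cells with 171. In arachnoid fibroblast-like cells (11 and 66 cells) Rbp4 was at 294 CPM (234 to 365), with 82 UMIs in 22 TBI cells and none in 11 Sham cells, which allows a share of up to 27.3% of cells with a UMI. The subcluster led by Matn4 and Chad had no Rbp4 UMI in 75 cells. Markers of dural fibroblasts differed in both directions between this subcluster and the one led by Penk and Nr4a2. All 8 had UMIs in both the Penk and Nr4a2 subcluster and the Matn4 and Chad one. In the former Foxc2 was at 488 CPM, Alpl at 980 CPM and Fxyd5 at 5114 CPM, against 245, 581 and 3793 CPM in the latter. Matn4, Chad and Fmod were lower in the former, at 10.7, 69.7 and 578 CPM against 1599, 1377 and 2748 CPM, as were Mgp and Smoc2. Summed, the dural markers were at 19571 CPM in the former and 30375 CPM in the latter. The arachnoid markers summed to 4640 and 749 CPM. Crabp2 had 101 of its 196 fibroblast-like UMIs in the Penk and Nr4a2 subcluster, at 181 CPM (147 to 219), and was between 50.4 and 119 CPM in 4 of the other 5 with over 40 cells.

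Aldh1a2 was nearly absent from the subcluster led by Penk and Nr4a2, with 1 UMI in its 119 cells. That subcluster was highest for Rbp4 by level but not by share of cells. Rbp4 was seen in 12.6% of its cells and 28.6% of arachnoid fibroblast-like cells, or 8.77% and 20.6% after thinning. The level of Aldh1a2 was highest in the subcluster led by Clec3b and Ccl11 (7 Sham and 36 TBI cells) at 705 CPM (557 to 881). That level came from 2 Sham cells with 12 UMIs and 9 TBI cells with 65, and 50 of the 77 UMIs were in 1 TBI cell. Arachnoid fibroblast-like cells had 48 UMIs at 172 CPM (127 to 228) over more cells, 27.3% of Sham and 36.4% of TBI cells, with at most 9 UMIs in any of them. Stra6 was also highest in arachnoid fibroblast-like cells, which had 39 of its 65 fibroblast-like UMIs (60%) at 140.0 CPM (99.5 to 191), 2 UMIs from Sham and 37 from TBI. The plot of subclusters shows that Rbp4, Stra6, Aldh1a2 and Crabp2 all had UMIs in the arachnoid fibroblast-like subcluster. At a lower subcluster resolution Aldh1a2 was highest in arachnoid fibroblast-like cells, at 205 CPM (151 to 272). A subcluster of 164 cells led by Matn4 and Chad, with 50 UMIs in 1 cell, was at 142 CPM (114 to 175). Rbp4 intervals there overlapped between arachnoid fibroblast-like cells (278 to 434) and the subcluster led by Penk and Tcim (331 to 428).

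**Figure D3:**
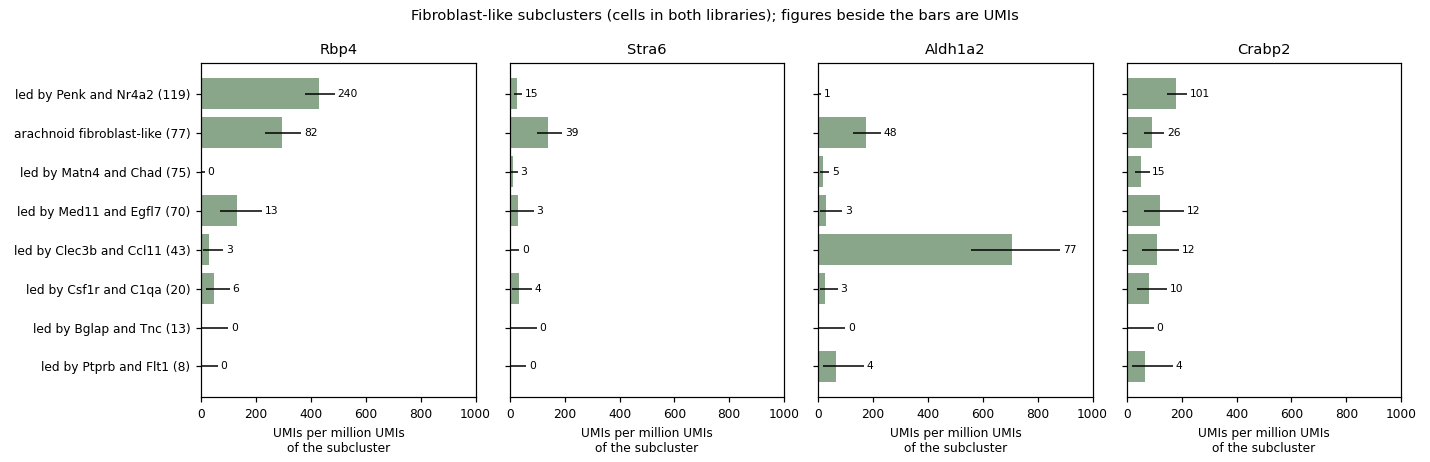
Level of Rbp4, Stra6, Aldh1a2 and Crabp2 in 8 of the 9 fibroblast-like subclusters, both libraries together, in UMIs per 1000000 UMIs of the subcluster; lines are 95% counting intervals, figures beside the bars are UMIs and those beside the names are cells. Rbp4 and Crabp2 are highest in the subcluster led by Penk and Nr4a2, Aldh1a2 in that led by Clec3b and Ccl11 and Stra6 in the arachnoid fibroblast-like one.

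Co-detection was described cell by cell in the 517 fibroblast-like cells. Aldh1a2 was seen in 10 of 50 cells with Rbp4 (20%) and in 38 of 467 without it (8.14%), and the cells with Rbp4 were deeper, with medians of 3929 and 3003 UMIs. After thinning to 1000 UMIs the shares were 5 of 29 (17.2%) and 17 of 429 (3.96%). Crabp2 was seen in 28% of cells with Rbp4 and 20.8% of those without, and Stra6 in 18% and 4.71%. Other pairs went the other way. Crabp2 was seen in 16.7% of cells with Aldh1a2 and 22.0% of those without, or 4.55% and 8.94% after thinning. Aldh1a2 was seen in 4% of cells with Aldh1a1 and 9.55% of those without, and Rdh10 in 2% of cells with Rbp4 and 3.21% of those without. These cells share 2 libraries and the shares rest on few cells, so they are given as counts.

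The comparison of TBI with Sham asked whether members differed in level within a class 1 week after injury. A difference was taken as the log2 ratio of the 2 CPM values with 0.5 added to each sum, given only where the sums held at least 20 UMIs, and counted as a call when past 2-fold. This left 13 pairs of member and class over 8 members, Aldh1a3 having too few UMIs. Calls numbered 2 of 13, both higher in TBI. Both pairs reached the minimum of 20 UMIs only through TBI, the library in which they were high. Their shared direction is therefore not read as a result. In fibroblast-like cells 1 of 5 members was past 2-fold, where 10.1% of 9484 genes were in either direction. In macrophage-like cells it was 1 of 2 members, where 3.65% of 9704 genes were. No pair was past 2-fold in choroid plexus-like, dendritic-like, endothelial-like, migratory dendritic-like or pineal-like cells, where 8.1%, 3.41%, 5.28%, 8.71% and 18.9% of genes were. With so few pairs, these counts say nothing of the members as a set.

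The 2 calls were small in counts. Stra6 in fibroblast-like cells had 4 UMIs in 3 Sham cells and 61 in 28 TBI cells, a log2 ratio of 1.12 (-0.16 to 3.20). Rdh10 in macrophage-like cells had 4 UMIs in 4 Sham cells (2.77 CPM) and 21 in 19 TBI cells (6.21 CPM), a log2 ratio of 1.03 (-0.40 to 3.17). Both intervals included 0. Without the highest cell of each library, Stra6 had 2 and 54 UMIs and a log2 ratio of 1.79 (0.18 to 5.18), which left out 0. Rdh10 then had 3 and 19 UMIs and a log2 ratio of 1.24 (-0.34 to 3.82). Whether the Stra6 interval included 0 thus depended on single cells, and no difference is read from either pair. When 1 rather than 0.5 was added to each sum, no pair was past 2-fold.

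One interval of the 13 left out 0, that of Rbp4 in fibroblast-like cells, at -0.64 (-1.01 to -0.23). It turned on 1 Sham cell with 46 UMIs. Without the cell with the most UMIs in each library the levels were 94.5 CPM in Sham and 158 CPM in TBI and the log2 ratio was 0.72 (0.14 to 1.41), and as a mean over cells it was 0.22. Counting intervals do not cover such spread between cells, and no direction can be given for Rbp4.

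For the remaining pairs the log2 ratios ran from -0.83 to 0.29. Crabp2 in fibroblast-like cells had a log2 ratio of 0.09 (-0.49 to 0.79), and Aldh1a2 in the same cells 0.29 (-0.42 to 1.18), or 0.90 (-0.18 to 2.50) without the highest cells. Aldh1a2 was at -0.80 (-1.75 to 0.08) in migratory dendritic-like cells, -0.83 (-2.18 to 0.61) in macrophage-like cells and 0.01 (-1.18 to 1.25) in dendritic-like cells. Crabp1 in pineal-like cells was at 0.27 (-0.27 to 0.87), Stra6 in choroid plexus-like cells at -0.29 (-0.97 to 0.45), and Cyp26b1 in endothelial-like cells at -0.56 (-1.41 to 0.35). Aldh1a1 was at -0.44 (-1.75 to 1.41) in fibroblast-like and -0.22 (-1.56 to 1.48) in pineal-like cells. As a mean over cells Aldh1a1 was at -2.23 in fibroblast-like cells, outside the counting interval. All of these intervals included 0, and their width shows that differences of 2-fold could not be told from none for most pairs. The intervals of Crabp2, of Crabp1 and of Stra6 in choroid plexus-like cells lay within 2-fold in both directions. They cover counting error only and do not bound the difference between groups. As a mean over cells the Crabp1 ratio was -0.34, outside its interval.

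**Figure D4:**
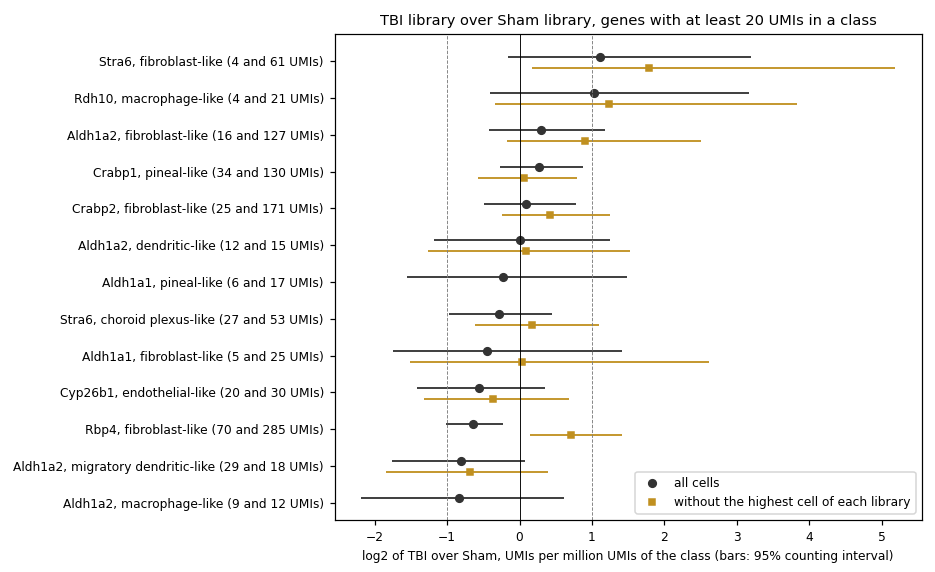
Log2 ratio of TBI over Sham for the 13 pairs of gene and class with at least 20 UMIs, for all cells (black) and without the highest cell of each library (gold, drawn where 20 UMIs remained); bars are 95% counting intervals, dashed lines mark 2-fold, and UMIs of Sham and TBI stand beside the names. Rbp4 in fibroblast-like cells moves from -0.64 to 0.72 when the highest cells are left out, and 12 of the 13 black intervals include 0.

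The make-up of the fibroblast-like class also differed between the libraries. Its 9 fibroblast markers summed to 21198 CPM in Sham and 21574 CPM in TBI, all of them with UMIs in both. Macrophage markers summed to 26.7 CPM in Sham (4 of 8 with a UMI) and 638 CPM in TBI (8 of 8), and a subcluster of 20 TBI cells led by Csf1r and C1qa held most of them. Endothelial markers summed to 621 CPM in Sham (9 of 11) and 314 CPM in TBI (11 of 11), pericyte or smooth muscle markers to 518 (5 of 8) and 89.4 CPM (7 of 8), and red cell markers to 925 and 232 CPM (5 of 5 in both). The part of these other cells in the fibroblast-like ratios was not tested. Without the subclusters led by Csf1r and C1qa and by Ptprb and Flt1, an alternative chosen after seeing the data, 2 pairs were again past 2-fold.

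A wider list of 47 retinoid genes placed the members in their pathway. Dhrs3, which turns retinaldehyde back to retinol, was highest in fibroblast-like (214 CPM) and endothelial-like cells (184 CPM). Ttr, the plasma partner of RBP4, made up 228705 CPM of the choroid plexus-like class. Pineal-like cells had genes of the visual cycle, with Rdh5 at 510 CPM, close to the 449 CPM of choroid plexus-like cells, Rbp3 at 132 CPM and Rlbp1 at 83.1 CPM. They were the highest class for 8 of the 47 genes, some of these on no more than 3 UMIs. Choroid plexus markers summed to 1556 CPM in pineal-like cells, the next highest class after choroid plexus-like cells. The part of choroid plexus transcripts in the pineal-like levels and ratios was not tested. Fabp5, a lipid carrier that also binds retinoic acid, was at 2293 CPM in migratory dendritic-like cells, the class highest for Aldh1a2. Rbp7 was endothelial-like (204 CPM). Of the receptors, Rarb was at 95.2 CPM in the unnamed cluster led by Snhg11 and Foxp2 and 42.2 CPM in fibroblast-like cells, and Rxrg was at 172 CPM in Schwann-like cells. Pineal-like cells had Rxrg at 141 CPM in Sham and 159 CPM in TBI, against 95.9 and 224 CPM in Schwann-like cells. Among the other degrading enzymes Cyp26a1 had 3 UMIs and Cyp26c1 none, so Cyp26b1 held nearly all UMIs of that family.

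Within fibroblast-like cells 22 of the 47 wider genes had at least 20 UMIs, of which 12 had ratios above 0 and 10 below. Their median log2 ratio of TBI over Sham was 0.04, against -0.06 over all 9484 genes, and 1 was past 2-fold higher and 0 lower, where 5.87% and 4.23% of all genes were. That gene was Ttr, with 33 UMIs in Sham (126 CPM) and 1737 in TBI (1049 CPM), a log2 ratio of 3.04 (2.57 to 3.60). Ttr is the leading transcript of the choroid plexus, whose other markers summed to 122 CPM in Sham (6 of 8 with a UMI) and 217 CPM in TBI (8 of 8) in the same cells. Ttr was not higher in fibroblast-like cells alone. Of 18 classes with at least 20 Ttr UMIs it was higher in TBI in 17, in 13 of them past 2-fold. Outside the fibroblast-like class these higher ratios lay between 0.08 in choroid plexus-like and 2.04 in pericyte or smooth muscle-like cells. Pineal-like cells had less Ttr in TBI, with 40891 CPM in Sham and 4655 CPM in TBI. Their log2 ratio was -3.13 (-3.24 to -3.03). In macrophage-like cells the ratio was 1.79 (1.50 to 2.11) and in T cell-like cells 1.31 (0.80 to 1.88). Rarg was at 118 and 109 CPM, and Rarb at 41.9 and 42.3 CPM, in Sham and TBI. In the unnamed cluster led by Snhg11 and Foxp2, 13 of 17 ratios were above 0 and 7 were past 2-fold higher, against 10.0% of all genes there, with a median of 0.46 against 0.00. Of those 7, Ttr had 21 Sham UMIs and the others 1 or 2, among them Rara (2 and 40 UMIs) and Dhrs4 (1 and 30 UMIs). Those others reached the minimum of 20 UMIs only through TBI, the library in which they were high. Their intervals all included 0, as for Rara (-0.20 to 4.84) and Dhrs4 (-0.26 to 7.68). The count and the median are therefore not read as a difference of the list.

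Finally, genes with the most similar pattern over the 19 named classes were listed, by the correlation of log2(CPM + 10) with both libraries pooled. The closest to Rbp4 were Nog (r = 0.996), Prmt8 and Prokr1, and to Crabp2 Cilp2 (r = 0.990), Nppc and Cemip. Igfbp2 (r = 0.958), Ecrg4 and Nqo1 were closest to Stra6, and Dkk2 (r = 0.877), Castor2 and Adm to Aldh1a2. For Crabp1 they were Pcsk1n (r = 0.981), Tst and Plekhb1, for Aldh1a1 Pde1a (r = 0.965), Meg3 and Rcan2, and for Cyp26b1 Spry4 (r = 0.985), Gm13889 and Meox2. Rdh10 had no close match, its highest value being 0.846 for Trappc13, and Aldh1a3 had too few UMIs. The 19 points come from the same 2 libraries and differ in depth and cell number, so the values are descriptions.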

How the data were processed

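The deposited files are UMI counts per gene and barcode of 2 libraries. The counts were produced by the authors with Cell Ranger on mm10. The methods name another release of that software than the submitters' processing notes (2.1.1) and the matrix headers (3.1.0), with an annotation release not given in the sources used here. All values are whole numbers without normalization, and barcodes outside the cell limits below were still present. Cells were kept at 150 to 5000 genes, at most 20% mitochondrial and at most 5% hemoglobin UMIs, the limits in the study's methods. Predicted doublets (33 Sham and 114 TBI cells) were left in and removed in an alternative. Both libraries were clustered together (scanpy 1.11.5, leidenalg 0.10.2) on 2000 variable genes and 20 principal components with 20 neighbours, resolution 0.8 and seed 1, leaving out 56 retinoid genes. To be named, a cluster needed 3 or more of a class's markers within the 50 genes most raised against the remaining cells (0.05 added to counts per 10000, detection in 10% of its cells or more). UMIs were summed per class and library and scaled to 1000000. Totals per kept library allow a floor of 3 counts at 0.381 CPM in Sham and 0.215 CPM in TBI, and UMIs of a class set a higher floor. Levels have exact Poisson intervals (scipy 1.17.1), shares and log2 ratios exact binomial ones, all at 95% and covering counting error only. To compare shares, cells were thinned to 1000 UMIs, which left out 388 Sham and 539 TBI cells.

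The members, the wider list and the markers were chosen with earlier results of these data known. The genes named were the members, the genes of those lists, and for each member with at least 50 UMIs the 3 genes most correlated with it over classes of at least 30 cells, among genes with at least 100 UMIs. With 1 library in each group, Sham and TBI were not tested against each other. The ratio step was tested on simulated data with known changes. Alternatives were clustering resolution, retinoid genes kept in the clustering, doublets removed, other cell limits, means over cells, the highest cell left out, other scaling, other added counts and other minimum counts. A further 3 were chosen after seeing the data. Positions come from GENCODE vM21, matched by symbol. One fibroblast-like subcluster and 1 gene of the wider retinoid list are not reported here.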

Additional observations from a re-analysis of the deposited data

Results flagged for a closer look

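Members also had UMIs in the 1232 barcodes that the cell filters removed, which the comparisons did not use, above the limit that a count of 0 allows. Crabp1 had 431 UMIs there, 161 from Sham and 270 from TBI, in 14 barcodes. Of these, 417 were in 4 of the 8 barcodes over the upper limit of 5000 genes, with 158 in 1 Sham barcode and 124, 92 and 43 in 3 TBI barcodes. Each of the 4 had more pineal marker UMIs (449, 266, 163 and 188) than those of any other class, with Crabp1 at 2609, 3922, 2881 and 1528 CPM. Doublets among them were not tested.

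Aldh1a1 had 218 UMIs in 154 removed barcodes, 108 from Sham and 110 from TBI. The hemoglobin limit concerned 213 of them, in 150 of 1035 barcodes, a share of 14.5% (12.4 to 16.8), whereas 1.44% (1.15 to 1.79) of the cells kept had an Aldh1a1 UMI. Those barcodes had 95.2 CPM of Aldh1a1, or 294 per 1000000 UMIs that were not hemoglobin, against 4.40 CPM in the cells kept. Aldh1a1 in these red cell barcodes was about evenly divided between Sham (108 UMIs) and TBI (105), from 604 Sham and 431 TBI barcodes.

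The other members past the limit had few such UMIs: 13 of Rbp4, 10 of Crabp2, 8 of Aldh1a2, 7 of Stra6 and 7 of Rdh10.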

How the results depend on the processing

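No paired analysis was possible because the labels give each group a single library with replicate number 1 and no test was made, and for the same reason no replicate could be left out. The highest class was that given for 9 of 9 members at resolution 0.4, with retinoid genes kept in the clustering, with at least 200 genes, with cells under 1000 UMIs left out, with the cluster led by Snhg11 and Foxp2 joined to the fibroblast-like class and without the subclusters led by Csf1r and C1qa and by Ptprb and Flt1. It was so for 8 without the highest cell of each library and with no upper limit of genes, and for 7 with doublets removed and with means over cells. At resolution 1.6 it was 2 of 9, because classes were divided. The fibroblast-like class lost the cluster led by Rbp4 and F3, the remaining class had Rbp4 at 20.5 CPM, and its Aldh1a2 ratio was -1.49. A cluster of 67 cells led by Ptgds and Prg4, at a median of 931 UMIs, also left the class. Rbp4, Stra6, Aldh1a2 and Crabp2 were all highest there, at 300, 160, 150 and 230 CPM. The Rbp4 level there came from 30 UMIs (202 to 428). Its interval overlapped that of the cluster led by Rbp4 and F3, which had 310 UMIs at 285 CPM (254 to 318). The Aldh1a2 interval (83.9 to 247) overlapped that of migratory dendritic-like cells. The Stra6 interval (91.4 to 260) lay above that of choroid plexus-like cells. The pairs past 2-fold, 2 as given, were 3 at resolution 0.4, with means over cells and with the joined class, 4 at resolution 1.6, 1 with retinoid genes kept, 1 with doublets removed, 1 with cells under 1000 UMIs left out, 0 with 1 added to each sum, 7 with at least 10 UMIs, 40 with no minimum and 1 with no upper limit of genes. The joined class, the class without the 2 subclusters and the missing upper limit were chosen after seeing the data, and under the last Crabp1 in pineal-like cells was at 1900 CPM and Aldh1a1 at 42.7 CPM. Pairs of member and class with a UMI in at least 10% of cells, 7 as counted, were 1 after thinning to 1000 UMIs and 2 when at least 2 UMIs were asked. Over all alternatives, levels in the highest class moved beyond their counting interval 20 times and did not 79 times, and ratios 5 and 182 times. Depth set a floor of 3 counts at 11.4 CPM in the Sham fibroblast-like class and at 69.9 CPM in the Sham pericyte or smooth muscle-like class, whose 0 UMIs of Rdh10, Aldh1a2 and Cyp26b1 therefore do not show absence.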
